A study of Homo sapiens with 6 samples.

Results

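The 4 ID genes, ID1 to ID4, and the 3 E protein genes TCF3, TCF4 and TCF12 were followed on Affymetrix U133 Plus 2.0 arrays of MDA-MB-231 cells, an invasive, triple-negative human breast cancer line. Every probe set annotated to one of these symbols and to no other gene was taken, which gave 35 of the 54613 probe sets measured. These 7 genes stand among 19775 genes with a probe set of their own. One further probe set, shared between ID2 and another symbol, was left out. The knockdown cells, shATAD3A, carried a pLKO.1 lentiviral short hairpin against ATAD3A, an ATPase of the mitochondrial inner membrane, and the control cells, shGFP, carried the same vector with a hairpin against GFP. Puromycin selection at 1.0 µg/ml lasted 2 weeks for both lines, which were used at passage 2, with 3 arrays a group. The labels do not say how many hairpin sequences were used, whether selected cells were pooled or clonal, or whether replicates were separate cultures, so errors and p-values measure the spread between these arrays. The genes were chosen with this contrast already known. Their values are therefore a description, with no test, and the counts of calls among them support nothing further.

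E proteins are transcription factors with a basic helix-loop-helix domain, which pair with each other or with tissue-specific partners and bind the E-box in DNA. ID proteins hold the helix-loop-helix but lack the basic region, so a pair of an ID and an E protein cannot bind DNA. ID1, ID2 and ID3 are well-known targets of bone morphogenetic protein (BMP) signalling through SMAD factors. In breast epithelium ID1 has been tied to proliferation and a less differentiated state, which need not hold for the other ID genes.

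All values are log2 expression as deposited, and a difference is shATAD3A minus shGFP on that scale. Array medians lay between 3.16 and 3.23. Across probe sets the values formed a low mode, where a probe set gives little signal, and a broad upper range. The lowest point between them, 4.78, was chosen after seeing the data and serves here only to say whether a probe set lay above the low mode in at least 1 group. ATAD3A itself read 7.41, 7.03 and 7.39 in shATAD3A arrays, against 7.73, 7.78 and 7.80 in shGFP arrays (difference -0.49 ± 0.107 SE; limma adjusted p = 0.022). That call was lost without shGFP replicate 1, 2 or 3 (limma adjusted p = 0.0596, 0.0687 and 0.0748). ATAD3A had a single probe set, of the x_at type, whose probes may also match other transcripts. How far its signal measures ATAD3A RNA alone was not tested. Over all probe sets the groups differed widely, and 22.4% were called by limma at an adjusted p under 0.05. VIM, a mesenchymal intermediate filament, averaged 15.2 in shATAD3A and 15.1 in shGFP arrays, while 3 further markers of the line, CD44, MSN and AXL, were far above the low mode and fell by 0.34, 0.45 and 0.26. SPARC was the 1 of 7 markers of the line in the low mode. Of 4 genes usually low in triple-negative cells, ESR1 and PGR lay in the low mode, ERBB2 averaged 8.31 in shATAD3A and 7.80 in shGFP arrays and was called higher, and GATA3 averaged 7.98 in shATAD3A and 8.61 in shGFP arrays and was called lower. All 4 measured leukocyte markers lay in the low mode in both groups, PTPRC with means of 3.20 in shATAD3A and 3.19 in shGFP arrays, though CD14 was called lower within it (difference -1.60 ± 0.17 SE). The fibroblast markers COL1A2, COL3A1, DCN and PDGFRB lay there too, while COL1A1 rose by 1.01. Among keratinocyte markers, KRT5, KRT14 and KRT1 lay in the low mode. KRT10 averaged 12.3 in shATAD3A and 12.2 in shGFP arrays, and none of these keratinocyte markers was called. The keratins KRT8 and KRT18 rose by 1.42 and 1.00, so the arrays differ in some epithelial genes as well. The part of these differences in the results below was not tested.

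The inhibitors ID1, ID2 and ID3 were all far higher in shATAD3A arrays, while ID4 was not. ID2 gave 11.96, 11.71 and 11.80 on its brighter probe set (201565_s_at) in shATAD3A arrays, against 4.56, 5.37 and 5.51 in shGFP arrays. The groups were far apart, with shGFP replicate 1 the lowest of the 6 arrays and the only one under the low-mode boundary. The difference was 6.67 ± 0.26 (SE), the 1st largest increase among the brightest probe sets of 19775 genes. The other ID2 probe set, 201566_x_at, of a type whose probes may also match other transcripts, gave 8.87, 8.44 and 8.77 in shATAD3A arrays and 3.16, 2.83 and 2.56 in shGFP arrays, a difference of 5.84 ± 0.18 (SE). All 3 shGFP values of this probe set lay in the low mode, so its fold change is imprecise, and the shATAD3A mean stood 15.1-fold above the boundary. The 2 probe sets did not rank the shGFP arrays alike, since shGFP replicate 1 was the lowest on the first and the highest on the second.

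ID3 gave 11.77, 11.88 and 11.86 in shATAD3A arrays, against 9.09, 8.89 and 8.95 in shGFP arrays, on its single probe set. Its groups were tight, with SDs of 0.058 and 0.10 (n = 3 each), and did not overlap. The difference of 2.86 ± 0.061 (SE) was 7.27-fold and ranked 69th among the increases of all genes. ID1 gave 14.32, 14.43 and 14.33 in shATAD3A arrays and 12.19, 12.07 and 12.15 in shGFP arrays, also on a single probe set. ID1 was thus already well above the low mode in shGFP arrays, unlike ID2, and differed by 2.22 ± 0.047 (SE), or 4.67-fold, ranked 136th. Expressed as averages, ID1 was 14.4 ± 0.061 in shATAD3A and 12.1 ± 0.063 in shGFP arrays (SD, n = 3 each).

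**Figure D1:**
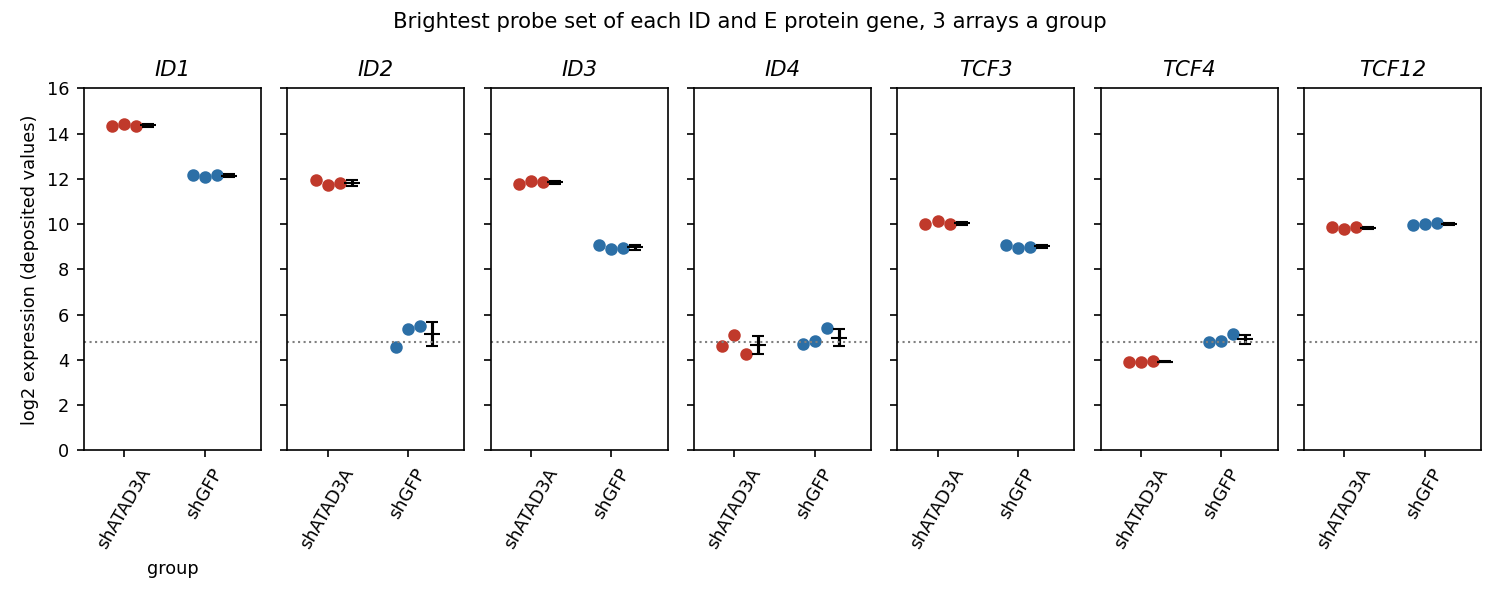
Log2 expression (y axis) of the brightest probe set of each of the 7 genes in the shATAD3A (red) and shGFP (blue) arrays. Points are the 3 arrays of a group, black bars the mean and SD, and the dotted line the low-mode boundary at 4.78. ID1, ID2, ID3 and TCF3 sit higher in shATAD3A with no overlap, TCF4 and TCF12 sit lower, and the ID4 groups overlap.

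ID4 showed no such difference. Its brightest probe set (209291_at) gave 4.60, 5.10 and 4.28 in shATAD3A arrays, against 4.68, 4.85 and 5.40 in shGFP arrays. The groups overlapped around the low-mode boundary, and the difference of -0.32 ± 0.27 (SE) was close to the spread between arrays of a group (SD 0.42 and 0.37). The other 4 ID4 probe sets lay in the low mode, between 2.09 and 3.16, with differences from -0.021 to 0.019. ID4 RNA was thus near the limit of what these arrays register in both groups, where a difference would be hard to see.

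Because ID1, ID2 and ID3 were all higher, the 250 bases before their annotated RefSeq starts (GRCh38.p14) are shown, 5′ to 3′ on the strand of the gene. Capitals mark the SMAD box, GTCT or its reverse complement AGAC. ID1 lies on the plus strand (chr20:31605039-31605288), ID2 on the plus strand (chr2:8681806-8682055) and ID3 on the minus strand (chr1:23559502-23559751).
ID1: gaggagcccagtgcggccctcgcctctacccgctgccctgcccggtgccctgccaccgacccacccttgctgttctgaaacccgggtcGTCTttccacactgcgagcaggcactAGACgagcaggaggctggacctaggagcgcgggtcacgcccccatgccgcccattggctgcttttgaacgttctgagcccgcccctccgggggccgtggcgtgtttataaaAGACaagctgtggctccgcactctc
ID2: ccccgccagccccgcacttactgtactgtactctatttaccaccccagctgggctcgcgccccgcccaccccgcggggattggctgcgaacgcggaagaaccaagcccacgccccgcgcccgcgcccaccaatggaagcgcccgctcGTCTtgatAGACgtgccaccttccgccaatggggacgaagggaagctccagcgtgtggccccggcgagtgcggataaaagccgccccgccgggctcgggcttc
ID3: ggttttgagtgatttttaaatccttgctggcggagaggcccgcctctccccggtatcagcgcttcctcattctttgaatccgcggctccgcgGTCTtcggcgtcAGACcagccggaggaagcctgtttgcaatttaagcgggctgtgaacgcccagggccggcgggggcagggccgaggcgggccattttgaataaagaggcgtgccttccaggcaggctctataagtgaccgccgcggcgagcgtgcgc

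The SMAD box occurred 3 times before ID1, at -162, -136 and -25 from the start, 2 times before ID2, at -103 and -95, and 2 times before ID3, at -158 and -146. So short a motif is common, and 77.5% of the 35116 promoter windows of this length held it. The ID4 window held 1, the TCF3 window 0, all 10 TCF4 windows together 21, and 4 of 5 TCF12 windows together 9. The E-box CANNTG was found 1 time before ID2 and 1 time before ID4, in 5 of 10 TCF4 and 2 of 5 TCF12 windows, and not before ID1, ID3 or TCF3, while 61.8% of all windows held it. Its E protein form CACCTG, a kind of CANNTG whose reverse complement is CAGGTG, was in none of the 20 windows of the 7 genes and in 17.5% of all windows. The BMP element GGCGCC was in 1 of 5 TCF12 windows and in no window of the other 6 genes, against 16.4% of all windows, and the cyclic AMP element TGACGTCA was in none of the 20, against 1.65%. All motifs were searched on both strands, only in the 250 bases before a start, so sites further upstream could not be found. A match describes letters in the window and is no evidence of binding.

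Among the E proteins, which the ID proteins inhibit, TCF3 was higher in shATAD3A arrays, TCF4 was lower at a level near the low mode, and TCF12 differed little. TCF3 encodes the E2A proteins, which arise by splicing between alternative basic helix-loop-helix exons. The x_at probe sets of TCF3 are of the type whose probes may also match other transcripts. The brightest TCF3 probe set (210776_x_at) gave 10.02, 10.12 and 10.00 in shATAD3A arrays, against 9.09, 8.96 and 8.98 in shGFP arrays. The groups did not overlap, and the difference was 1.03 ± 0.050 (SE), or 2.05-fold. On 213811_x_at TCF3 read 9.77, 9.91 and 9.72 in shATAD3A arrays, against 9.15, 8.83 and 8.93 in shGFP arrays. On 213730_x_at it read 9.03, 9.25 and 9.16 in shATAD3A arrays, against 8.37, 8.26 and 8.22 in shGFP arrays. The non-overlapping groups recurred on 209152_s_at, which gave 8.40, 8.39 and 8.36 in shATAD3A arrays and 7.69, 7.34 and 7.53 in shGFP arrays.

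The size of the TCF3 difference depended on the probe set. It was 0.83 ± 0.096 on 213811_x_at, 0.87 ± 0.069 on 213730_x_at and 0.86 ± 0.088 on 209152_s_at (SE), but 0.39 ± 0.075 (SE) on 209153_s_at, which read 9.19, 9.08 and 9.37 in shATAD3A arrays and 8.85, 8.82 and 8.81 in shGFP arrays. A sixth probe set just above the low mode, 202648_at, averaged 4.86 ± 0.11 in shATAD3A and 4.84 ± 0.017 in shGFP arrays (SD, n = 3 each) and did not differ beyond the spread between arrays. The other 8 TCF3 probe sets lay in the low mode, with differences from -0.026 to 0.050. The probe sets were not assigned to splice forms here. They share a gene and so are not independent measures of it.

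Genes next to TCF3 on chromosome 19 were also higher in shATAD3A arrays. Of its 50 nearest neighbours above the low mode, 25 on either side, 38 were called higher and 0 lower, with a median difference of 0.52. The difference of TCF3 was 0.52 above that median. Over all genes above the low mode, 58.4% were called in either direction and the median difference was 0.066. The 50 nearest neighbours of TCF3 at any level had a median of 0.29. Of these, 25 were called higher and 0 lower, against 18.4% and 13.0% of all genes. The part of the difference of these neighbours in the TCF3 difference was not tested. The 50 neighbours above the low mode had a median of 0.14 around ID1, 0.12 around ID3, 0.14 around TCF4 and 0.078 around TCF12, with called genes in both directions. Around ID2 on chromosome 2, the 36 neighbours above the low mode had a median of -0.23, with 6 higher and 20 lower, against the 6.67 of ID2 itself. The 50 neighbours above the low mode around ID4 on chromosome 6 were lower, with a median of -0.37, 3 genes higher and 30 lower. That median was close to the -0.32 of ID4, while the 50 nearest neighbours of ID4 at any level had a median of -0.066.

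TCF4 here is the E protein gene also known as E2-2, not the WNT effector TCF7L2 that has shared its name. Its brightest probe set (203753_at) gave 3.91, 3.89 and 3.97 in shATAD3A arrays, against 4.79, 4.82 and 5.15 in shGFP arrays. The shGFP arrays lay at the edge of the low mode and the shATAD3A arrays inside it, with no overlap and a difference of -0.99 ± 0.10 (SE). On 212386_at the values were 3.10, 3.40 and 3.45 in shATAD3A arrays, against 4.32, 3.84 and 3.81 in shGFP arrays, a difference of -0.68 ± 0.17 (SE) that lay wholly in the low mode. The other 6 TCF4 probe sets lay in the low mode with differences from -0.27 to -0.00074, and none was called. On 213891_s_at, the one at -0.27, shGFP replicate 1 stood apart at 3.42, against 2.96 and 2.93 in the other shGFP arrays.

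TCF12, which encodes the E protein HEB, was the E protein gene with the smallest difference on its brightest probe set. That probe set (208986_at) gave 9.86, 9.80 and 9.88 in shATAD3A arrays, against 9.97, 10.02 and 10.05 in shGFP arrays. The groups did not overlap, but they differed by only -0.17 ± 0.036 (SE), or 1.12-fold. A second TCF12 probe set above the low mode (238041_at) leaned the other way, with 5.47, 5.57 and 5.54 in shATAD3A arrays and 5.44, 5.45 and 5.51 in shGFP arrays, which overlapped. The remaining 2 TCF12 probe sets, at the edge of the low mode, differed by -0.24 ± 0.11 and 0.32 ± 0.27 (SE), again in opposite directions. The calls behind the lower values were fragile. TCF12 lost its call without shGFP replicate 2 or 3 or shATAD3A replicate 1 or 2, with adjusted p between 0.051 and 0.0778, and the TCF4 probe set 212386_at lost its call without any one array except shGFP replicate 1, with adjusted p between 0.0503 and 0.0977. TCF4 on 203753_at kept its call without each array. Member probe sets called higher numbered 9 with all arrays, and 8 without shGFP replicate 2 or 3.

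**Figure D2:**
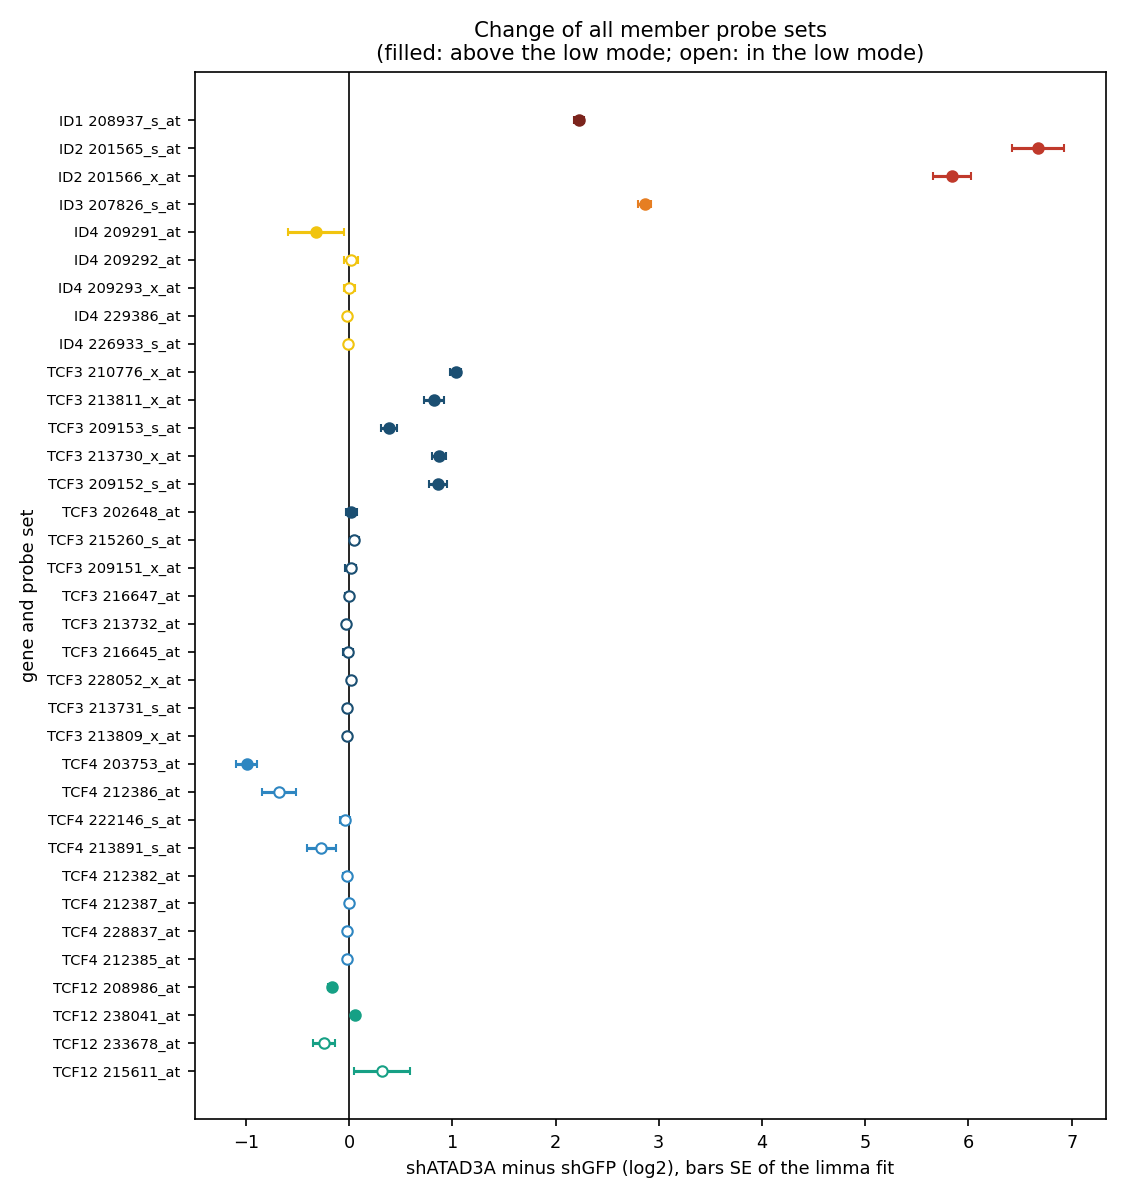
Difference between shATAD3A and shGFP arrays (x axis, log2) for each of the 35 probe sets (y axis, grouped by gene), with bars for the SE of the fit. Filled points lay above the low mode in at least 1 group and open points did not. The ID2 points stand at 6.67 and 5.84, ID3 at 2.86 and ID1 at 2.22, 5 TCF3 points lie between 0.39 and 1.03, and most open points lie near 0.

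Of the 35 probe sets, 9 were called higher and 3 lower by limma at an adjusted p under 0.05, where 12.0% of all probe sets were called higher and 10.5% lower. The 9 higher ones were 4 of the 9 ID probe sets and 5 of the 26 E protein probe sets. Groups did not overlap for 14 of the 35, against 33.2% of all probe sets. Above the low mode 11 of 14 were called, against 52.5% of all probe sets above it, and in the low mode 1 of 21, against 1.71%. The contrast was known when the genes were chosen, so nothing is read from these counts.

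The genes whose 6 array values lay nearest to those of a member, by Euclidean distance on the log2 scale between brightest probe sets, were listed for the members that differed by at least 1. The distance mixes levels of different probe sets, which are not on one scale between genes, and is a description only. Nearest to ID3 were the laminin chain LAMB1 at 0.435, MAL2, a membrane traffic protein of epithelia, at 0.470 and the cytokine IL18 at 0.767. Nearest to ID1 were the interferon-stimulated genes ISG15 at 0.694 and IFIT3 at 0.739, followed by EDIL3 at 1.36. Nearest to TCF3 were FRMD3 at 0.139, the stress factor DDIT3 at 0.140 and the fibrillin FBN1 at 0.144. ID2 had no close match, its nearest genes being HKDC1 at 2.19, PCDH7 at 2.37 and HSPB8 at 2.69.

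BMP signalling is the best-known input to ID genes, and only the RNA of its components was measured here. In a list of 25 genes for BMP ligands, receptors, SMADs and antagonists, 23 were measured, 7 rose and 4 fell in shATAD3A arrays and 12 did not pass the test, where 18.4% of all genes rose and 13.0% fell on their brightest probe sets. Above the low mode 11 of 16 passed, against 58.4% of all such genes. The median difference of the list was 0.035, against -0.00084 over all genes. CHRDL1, whose values were known when the list was made, is one of the 4 that fell.

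Among ligands, BMP2 rose, with 7.13, 6.67 and 7.02 in shATAD3A arrays and 5.01, 5.16 and 4.28 in shGFP arrays, a difference of 2.12 ± 0.26 (SE; limma adjusted p = 0.00216). A further BMP2 probe set differed by more, 3.82. BMP4 differed by 0.098 (adjusted p = 0.513), and BMP6, BMP7 and GDF2 lay in the low mode. Among receptors, the type I receptor BMPR1B rose, with 7.44, 7.56 and 7.52 in shATAD3A arrays and 5.52, 5.38 and 5.62 in shGFP arrays, a difference of 2.00 ± 0.071 (SE; limma adjusted p = 2.889e-05). ACVR1 rose by 0.43 (adjusted p = 0.0321), while the type II receptor BMPR2 differed by -0.23 (adjusted p = 0.0934). Of the SMADs that BMP receptors phosphorylate, SMAD9 rose by 1.33 (adjusted p = 2.667e-05), SMAD1 differed by 0.085 (adjusted p = 0.683) and SMAD5 fell by 0.15 (adjusted p = 0.0429). ACVR1, SMAD5, SMAD7, SMAD9 and BAMBI were singled out after their values were seen.

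The inhibitors of the pathway moved in both directions. SMAD6, which blocks BMP receptors and their SMADs, averaged 8.91 ± 0.12 in shATAD3A and 7.55 ± 0.072 in shGFP arrays (SD, n = 3 each), with no overlap, a difference of 1.35 ± 0.071 (SE; limma adjusted p = 0.0001023). None of its other 3 probe sets, all in the low mode, was called. SMAD7 rose by 1.28 ± 0.11 (SE; adjusted p = 0.0005454) and the pseudoreceptor BAMBI by 0.95 ± 0.050 (SE; adjusted p = 0.0001043), each without overlap. The secreted BMP antagonist NOG (noggin) fell, with 8.86, 8.51 and 8.66 in shATAD3A arrays and 10.91, 11.00 and 11.05 in shGFP arrays, a difference of -2.31 ± 0.096 (SE; limma adjusted p = 4.644e-05). CHRDL1, another secreted antagonist, read 4.62, 4.62 and 5.07 in shATAD3A arrays, at the edge of the low mode, against 10.61, 10.65 and 10.55 in shGFP arrays (difference -5.84 ± 0.13 SE; limma adjusted p = 7.788e-06). CHRD and GREM1, of the same function, lay in the low mode in both groups. The ubiquitin ligase SMURF2, which marks SMADs and receptors for decay, fell by 0.97 (adjusted p = 4.857e-05) and fell on its other 3 probe sets too, with -1.36 to -1.04, while the related ligase SMURF1 differed by -0.059 (adjusted p = 0.604).

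**Figure D3:**
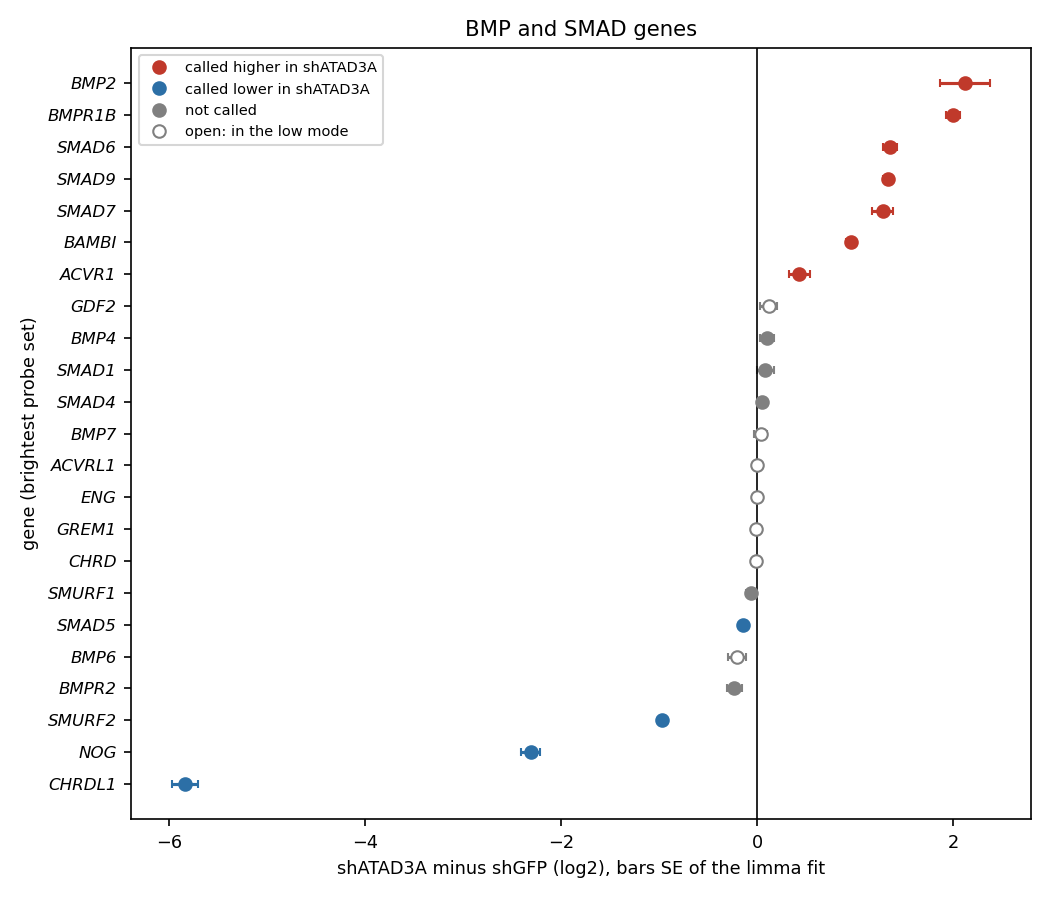
Difference between shATAD3A and shGFP arrays (x axis, log2, bars SE of the fit) for the 23 measured genes of the BMP and SMAD list (y axis, ordered by difference). Red points were called higher in shATAD3A, blue points lower and grey points neither, and open points lay in the low mode. BMP2 and BMPR1B lead the increases at 2.12 and 2.00, and CHRDL1 and NOG the decreases at -5.84 and -2.31.

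The tissue-specific partners of E proteins were mostly not registered. Of 28 measured genes 25 lay in the low mode, among them TWIST1, TWIST2 and MYOD1, and 3 rose, 1 fell and 24 did not pass, against 18.4% of all genes higher and 13.0% lower, with a median difference of -0.0086. All 3 above the low mode passed, where 58.4% of all such genes did. ATOH8, which is induced by BMP in several cell types, rose, with 6.43, 6.79 and 6.23 in shATAD3A arrays and 4.95, 5.05 and 5.52 in shGFP arrays (difference 1.31 ± 0.20 SE; limma adjusted p = 0.00598). MESP1, known from mesoderm and heart, rose by 0.94 (adjusted p = 0.0005079), and LYL1, known from blood cells, fell by 0.50 (adjusted p = 0.00753). OLIG1 rose by 0.13 within the low mode, and lost its call without 5 of the 6 single arrays (adjusted p = 0.0613 to 0.11).

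The HES, HEY and BHLHE repressors, helix-loop-helix factors that act mostly downstream of Notch or of stress and clock signals, rose in 5 of 11 measured genes and fell in 1, against 18.4% of all genes higher and 13.0% lower. All 5 above the low mode passed, where 58.4% of all such genes did. HES1 rose, with 9.03, 9.19 and 9.29 in shATAD3A arrays and 5.70, 5.74 and 5.59 in shGFP arrays (difference 3.50 ± 0.076 SE; limma adjusted p = 7.491e-06), and a further HES1 probe set rose by 2.54. HES4 rose by 1.46 (adjusted p = 0.0002263) and BHLHE40 (DEC1) by 1.28 (adjusted p = 2.475e-05), while the related BHLHE41 (DEC2) fell by 0.90 (adjusted p = 0.00125). The count of 5 was 3 without shGFP replicate 1 or 2, and HES1, HES4 and BHLHE40 kept their calls without each array.

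The leucine zipper branch of the helix-loop-helix family, whose members pair with each other through the zipper, moved both ways. Of 20 measured genes 4 rose, 7 fell and 9 did not pass, against 18.4% of all genes higher and 13.0% lower, with a median difference of -0.033. Above the low mode 11 of 15 passed, where 58.4% of all such genes did. MITF, a factor of the melanocyte and lysosome programme, rose by 1.20 (adjusted p = 1.228e-05), and the MAX-like gene MLX and its partner MLXIP rose by 0.49 (adjusted p = 0.00148) and 0.37 (adjusted p = 0.00333). The 3 other MLX probe sets above the low mode gave 0.061 to 0.60, and 2 of them were called higher. Another MLXIP probe set above the low mode gave 0.19 and was not called. The MYC antagonist MXI1 fell by 0.94 (adjusted p = 0.0002036), TFEB fell by 0.75 (adjusted p = 0.0008263) and MYC itself fell by 0.39 (adjusted p = 0.0016).

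Of 21 cofactors and turnover factors of ID and E proteins, all measured, 5 rose, 4 fell and 12 did not pass, against 18.4% of all genes higher and 13.0% lower, with a median of -0.0042. Above the low mode 9 of 17 passed, where 58.4% of all such genes did. The coactivators EP300 and CREBBP differed by 0.099 (adjusted p = 0.242) and 0.11 (adjusted p = 0.226). SKP2, a ubiquitin ligase subunit that also targets E2A, rose by 0.91 (adjusted p = 0.0001536), CDC20, an activator of the anaphase-promoting complex, by 0.51 (adjusted p = 0.0002045) and the signalosome subunit COPS5 by 0.32 (adjusted p = 0.00393). USP1, the deubiquitinase that stabilises ID proteins, fell by 0.19 (adjusted p = 0.0148), a gene named after its value was seen. DYRK1A, a kinase that phosphorylates ID2, fell by 0.34 (adjusted p = 0.0009199) and LMO4 by 0.26 (adjusted p = 0.00474), though another LMO4 probe set differed by -0.018 and was not called. The 4 other DYRK1A probe sets lay in the low mode, with differences from -0.019 to 0.052. LMO2, a bridge in complexes of E proteins in blood cells, read 4.15, 4.13 and 3.82 in shATAD3A arrays against 5.91, 6.51 and 4.94 in shGFP arrays. Its shGFP arrays were widely spread, and the call (adjusted p = 0.0257) was lost without shGFP replicate 1 or without any one shATAD3A array (adjusted p = 0.0671 to 0.091). The count of 5 that rose was 3 without each array except shGFP replicate 3, and the count of 4 that fell was 2 without shATAD3A replicate 3.

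Of 19 measured genes reported as targets of E proteins or IDs, 13 lay in the low mode, mostly genes of B and T cells such as RAG1, RAG2 and PAX5, and 4 rose, 1 fell and 14 did not pass, against 18.4% of all genes higher and 13.0% lower. Above the low mode 5 of 6 passed, where 58.4% of all such genes did. CDKN1A, the cell cycle inhibitor p21, which E2A activates and ID proteins counter, fell, with 8.60, 8.58 and 8.57 in shATAD3A arrays and 10.10, 10.06 and 10.04 in shGFP arrays (difference -1.48 ± 0.028 SE; limma adjusted p = 5.389e-06). CDKN1C, of the same inhibitor family, averaged 6.09 in shATAD3A and 6.35 in shGFP arrays and was not called (difference -0.26; limma adjusted p = 0.203), and CDKN2A and CDKN2B lay in the low mode in both groups. CDH1 (E-cadherin), which E2A and TCF4 products can repress, rose, with 7.58, 7.59 and 7.40 in shATAD3A arrays and 2.36, 2.39 and 2.44, in the low mode, in shGFP arrays (difference 5.13 ± 0.062 SE; limma adjusted p = 1.929e-06). Its shATAD3A mean stood 6.70-fold above the low-mode boundary. The 1 other CDH1 probe set lay in the low mode in both groups and differed by -0.0079. The values of CDKN1A, CDH1 and MITF were known when the lists were made. The cytokine receptor IL7R rose by 2.35 (adjusted p = 7.057e-06) and by 2.46 on its other probe set, and the cytokine signal inhibitor SOCS3 rose by 1.11 (adjusted p = 0.0004226). The count of 1 that fell was 2 without shATAD3A replicate 1.

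**Figure D4:**
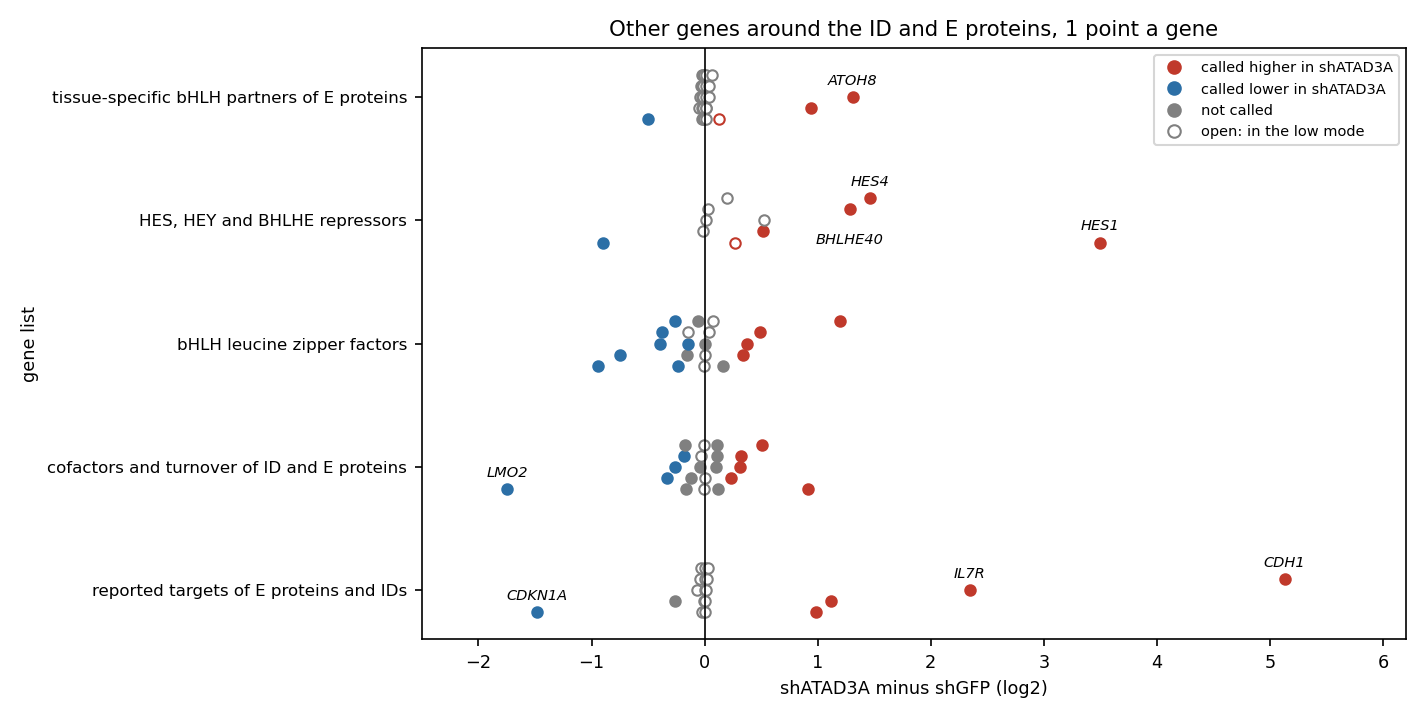
Difference between shATAD3A and shGFP arrays (x axis, log2) for the genes of 5 further lists (y axis), 1 point a gene on its brightest probe set. Red points were called higher in shATAD3A, blue points lower, grey points neither, and open points lay in the low mode; the genes with the largest differences are named. Most tissue-specific partners sit near 0 as open points, while HES1 stands at 3.50 and CDH1 at 5.13.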

How the data were processed

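Total RNA (250 ng) was labelled with biotin by a 3′ in vitro transcription kit and hybridised, per the labels' protocols. The table the authors deposited holds 1 value per probe set and array on a log2 scale, read from its range. Partek is named per the submitters' processing notes. How background was corrected and probes were summarised is not stated. The table's 6 columns matched the 6 arrays, leaving 0 columns unmatched, and 62 control probe sets were set aside. Symbols came from the 2016 platform annotation: 41091 probe sets had 1 symbol, 1801 several and 11721 none, and 0 symbols changed against the GRCh38.p14 gene table. No 2 arrays shared over 0.0165% of values.

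One fit over all 54613 probe sets used limma 3.58.1 in R 4.3.3 (lmFit, eBayes, two-sided, no covariates), with Benjamini-Hochberg adjustment over all of them, and was tested on simulated data. A gene in a list, and the gene background, is given by its brightest probe set (highest mean over 6 arrays, 1 symbol). Of each list, up to 3 of the largest called increases and 3 of the largest called decreases were named. Members, lists and tests were chosen with earlier results of these data known. Promoter windows came from RefSeq (GRCh38.p14) and covered all 7 genes, with several starts for TCF4 and TCF12. Alternatives are in the closing section. Detection calls and protein sequences were not used here.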

Additional observations from a re-analysis of the deposited data

How the results depend on the processing

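The fit was repeated under 14 other settings: quantile normalization, arrays centred on their medians, an intensity trend, array weights, dim probe sets left out, only the brightest probe set per gene, averaged probe sets, a replicate block, and each array left out. ID1, ID2, ID3, TCF3 and TCF4 kept direction and call in all 14, of which 13 follow the brightest probe set and 1 the average, with ID2 between 6.26 and 6.86, ID1 between 2.19 and 2.25 and ID3 between 2.82 and 2.92. TCF3 and TCF4 were smallest with averaged probe sets, at 0.29 and -0.25, since most of their probe sets lie in the low mode. ID4 was called in none of the 14. TCF12 lost its call with averaged probe sets (-0.0076, adjusted p = 0.967) and with the replicate block (-0.17, adjusted p = 0.071), and ranged from -0.19 to -0.14 with single arrays left out. Member probe sets called higher numbered 9, and 8 or 9 with single arrays left out. Those called lower numbered 3, and 1 with the replicate block and between 1 and 3 with single arrays left out. The causes were not tested. The TCF4 probe set 212386_at also missed the threshold after quantile normalization (adjusted p = 0.0607), with centred arrays (adjusted p = 0.0652) and with the replicate block (limma adjusted p = 0.109). Deviations from the group means correlated by -0.21, -0.11 and 0.038 between the samples sharing replicate number 1, 2 and 3. With 3 arrays a group, these values cannot tell whether the numbers pair the samples. Of 433 values of 31 named genes, 419 kept direction and call, 14 lost the call and 0 reversed; DYRK1A was among those lost, with averaged probe sets (adjusted p = 0.194). With averaged probe sets 14 named genes were smaller by over 1.5 times: CDH1 2.56, HES1 1.99, BMPR1B 1.29, ATOH8 0.75, BHLHE40 0.63, SOCS3 0.45, SMAD6 0.33, MLX 0.31, MESP1 0.30, MLXIP 0.12, DYRK1A -0.063, BHLHE41 -0.34, TFEB -0.43 and LMO2 -0.88. With no detection calls, fold changes in the low mode are imprecise, although 1.71% of its probe sets were called.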
